A study of Mus musculus with 12 samples.

Results

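The genes described here encode the subunits of respiratory complex I, the NADH:ubiquinone oxidoreductase of mitochondria. They were chosen by symbol as every gene named Ndufa, Ndufb, Ndufc, Ndufs, or Ndufv with a number, plus Ndufab1, and the assembly factors whose symbols begin with Ndufaf were left out. The rule used no measured value. It took 37 of the 34245 genes in the expression table, spread over 15 chromosomes. By the part of the enzyme in which their products lie, 10 belong to the N module, 6 to the Q module, 9 to the proximal and 10 to the distal part of the membrane arm. Ndufab1 encodes the mitochondrial acyl carrier protein, and Ndufa4 bears a complex I symbol although its product is now counted with complex IV.

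Complex I takes electrons from NADH, passes them along flavin and iron-sulfur clusters to ubiquinone, and couples this to the pumping of protons across the inner mitochondrial membrane. NADH is oxidised in the N module, ubiquinone is reduced in the Q module, and protons are moved by the membrane arm. The catalytic core is made of subunits encoded partly in the nucleus and partly in mitochondrial DNA, and the many accessory subunits around it are all nuclear. In the mouse preimplantation embryo, oxygen consumption rises towards the blastocyst stage, when the trophectoderm pumps ions to fill the blastocoel.

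Each library was made from the poly(A) mRNA of a pool of 30 blastocysts. The embryos came from F1 hybrid females of C57Bl6 and CBA/W parents mated with F1 males and were cultured in KSOM with amino acids from the 2-cell stage. At E3.5, blastocysts were transferred to medium with the solvent DMSO (control) or with 20 µM SB220025, which blocks p38-MAPK (p38-MAPKi), for 4, 7, or 10 h, and every one of the 6 groups has 2 biological replicates. Times below are hours after E3.5. The inhibitor acts on all cells of the blastocyst, and in a whole embryo fewer cells of a type and less RNA per cell cannot be told apart.

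The libraries held between 11242313 and 24457312 reads, the fewest in replicate 1 of p38-MAPKi at 7 h. Levels are in RPKM, the reads of a gene scaled to the length of its exons and to the reads of the library, so each is a share of its library. Markers of trophectoderm, epiblast, and primitive endoderm were present at at least 1 RPKM in every library, all 5, all 5, and 4 of 5, and their summed levels lay between 1710 and 2510, 539 and 704, and 91.8 and 142 RPKM. At 7 h the primitive endoderm sum was 116 to 142 RPKM in control and 91.8 to 94.2 RPKM after p38-MAPKi, and its 4 tested markers had a median log2 fold change of -0.46. Most of that sum was Gata6, with 101 and 129 RPKM in control and 80.9 and 85.0 RPKM after p38-MAPKi. At 10 h the sum was 120 to 124 RPKM in control and 128 to 130 RPKM after p38-MAPKi. It again followed Gata6, with 106 and 108 against 115 and 115 RPKM (log2 fold change 0.11). Gata4, with 3.86 and 2.34 against 1.84 and 1.85 RPKM, was at -0.70, Sox17 at -0.32, and Pdgfra at 0.07, none of these called by limma. Of the trophectoderm markers at 7 h, Gata3 was at -0.68, Cdx2 at -0.49, Krt8 at 0.08, and Krt18 at 0.16, none of these called by limma. Of 8 genes of maternal or blood cells, none reached 1 RPKM in every library and Ptprc and Cyp19a1 stayed below 0.1 RPKM in every library. Their sum was 1.06 to 1.94 RPKM in control and 1.76 to 2.78 RPKM after p38-MAPKi. The part of these markers in the results was not tested.

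Promoters of these genes were searched for short elements. RefSeq windows on GRCm38.p6, from 250 bases before to 50 bases after the transcription start, were given for 33 of the 37 genes, and Ndufa2, Ndufb9, and Ndufs1 are among those without one. On either strand, the NRF1 motif GCGCANGCG was in 9 of the 35 windows (25.7%), against 6.25% of all 32851 mouse windows of the same length. The YY1 motif AAGATGGCG was in 5 (14.3% against 1.4%), the ETS family motif CCGGAAG in 4 (11.4% against 8.86%), the SP1 motif GGGCGG in 16 (45.7% against 35.7%), and the TATAAA box in 5 (14.3% against 13.6%). NRF1 is a known activator of nuclear genes for respiration and GABP of the ETS family is another, and a match of letters is a description and not a measured site. The stretches below belong to some of the genes that hold a motif and stand high in the 7 h comparison described later. Not every high gene holds a motif: Ndufb2, with a log2 fold change of 1.03 at 7 h, had none of them in its window. Ndufb10 (0.73), Ndufa11 (0.66), and Ndufa6 (0.43) hold the NRF1 motif and are not shown. The stretches read 5′ to 3′ along the gene's own strand, with the motif or its reverse complement in capitals, NRF1 in all but Ndufb7 (ETS family) and Ndufa3 (SP1, in the 100 bases before the start).
Ndufa3, chr7:3617273-3617372, plus strand: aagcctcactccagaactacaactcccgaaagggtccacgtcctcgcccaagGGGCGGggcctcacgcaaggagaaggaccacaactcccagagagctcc
Ndufs5, chr4:123718265-123718294, minus strand: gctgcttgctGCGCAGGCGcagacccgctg
Ndufb7, chr8:83566728-83566757, plus strand: cctagatgacCCGGAAGacactgaaggggc
Ndufa5, chr6:24527697-24527726, minus strand: tgtgtgagctGCGCAGGCGcaaatctacct
Ndufs6, chr13:73328478-73328507, minus strand: gactgctgtgCGCCTGCGCcggcacttggt
Ndufb4, chr16:37654371-37654400, minus strand: cctcatatccGCGCAGGCGcagatgtgcgc
Ndufa8, chr2:36049328-36049357, minus strand: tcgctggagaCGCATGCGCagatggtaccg

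In control blastocysts every one of the 37 genes was expressed. Over all libraries, control and p38-MAPKi together, there were 297 to 6434 reads per gene and library. Averaged over the 6 control libraries, the lowest level was 5.03 RPKM and the highest 196 RPKM, with a median of 59.0 RPKM. Highest were Ndufb9 (196 RPKM), an accessory subunit of the distal arm, Ndufa8 (139 RPKM), of the proximal arm, and Ndufb6 (113 RPKM), of the distal arm. Lowest were Ndufab1 (5.03 RPKM), Ndufb2 (6.29 RPKM), and Ndufb5 (14.1 RPKM). The order rests on the length that was divided by: RPKM here used all exons of a gene together, 5628 bases for Ndufb2, whose main (principal) transcript has 455. Scaled in the same way to the main transcript alone, the level of Ndufb2 was 77.8, rank 22 instead of 36, and that of Ndufb7 146, rank 5 instead of 30. On that scale Ndufa4 was highest (207), then Ndufb9 (181) and Ndufb8 (159), and Ndufab1 stayed lowest (9.95).

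Core subunits encoded in the nucleus lay within this range. Ndufs8 held 95.6 RPKM in control, Ndufv1 87.3, Ndufs7 67.3, Ndufv2 64.1, Ndufs3 28.2, and Ndufs1 19.0 RPKM. The 7 core subunits encoded in mitochondrial DNA, mt-Nd1 to mt-Nd6 and mt-Nd4l, had no read in any of the 12 libraries, and so had all 13 genes of the mitochondrial chromosome in the table. No level can be given for them.

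**Figure D1:**
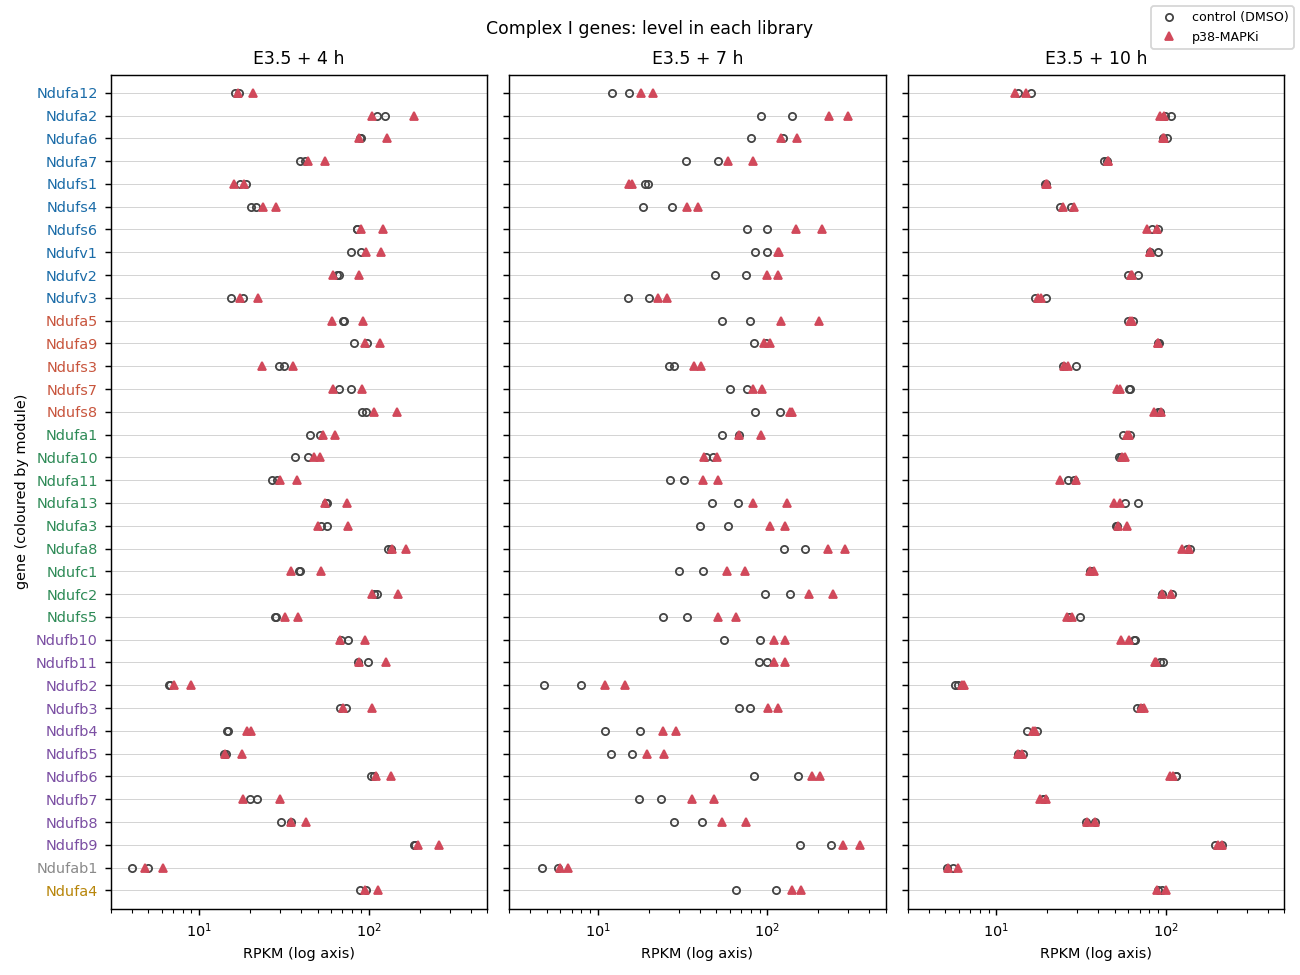
Level of complex I genes in each library, 36 of the 37 shown, in RPKM on a log axis, with control (DMSO) as open circles and p38-MAPKi as filled triangles, 2 libraries per group at each time point and gene names coloured by module. At 7 h the triangles lie to the right of both circles for 31 genes, and at 10 h they mostly lie among them.

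Whether p38-MAPKi alters these mRNAs was asked at each time point, against the control of the same time point. At 7 h most complex I genes stood higher after p38-MAPKi. The median log2 fold change of the 37 genes was 0.72, against -0.14 for all 10940 genes tested, and 35 of the 37 were above 0. Both p38-MAPKi libraries lay above both control libraries for 31 genes, a pattern found in 23% of all genes, and below them for Ndufs1 alone, a pattern found in 38.7%. By limma, with p-values adjusted over all genes tested, 4 of the 37 rose and none fell. Those 4 were Ndufa3, Ndufa2, Ndufb7, and Ndufs5, all accessory subunits, and the background was 2.13% of all genes called in either direction and 0.932% called higher. At an unadjusted p under 0.05, 27 were higher and none lower, where 10.7% of all genes were higher and 17.7% lower. The 23 further genes lay between the thresholds. With voom on the recovered reads 22 were called, where 15.8% of all genes were, and with median centring or quantile normalization 0 were called by limma (0 and 12 of all genes), with 32 and 24 higher at an unadjusted p under 0.05. Median centring moved the median of all genes to 0.05 and that of complex I to 0.91. In simulated libraries of this time point, 0% of genes with a true 2-fold change and 24% of those with a 4-fold change were called. Each gene was drawn independently there, with the spread of its own 4 libraries. Shifts shared by many genes of a library were left out, so these shares are only a rough guide.

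Ndufa3, a small membrane protein of the proximal arm (ENSMUSG00000035674.13, chromosome 7, 3617373 to 3620327, GRCm38), held 58.4 and 40.1 RPKM in control and 127 and 104 RPKM after p38-MAPKi at 7 h. The 2 groups did not overlap, and the log2 fold change was 1.25 (limma, standard error 0.218, adjusted p = 0.0456), from 49.2 ± 12.9 to 116 ± 16.6 RPKM (SD, n = 2). At 4 h it held 52.4 and 56.7 RPKM in control against 50.1 and 75.2 RPKM after p38-MAPKi, and at 10 h 50.5 and 51.7 against 52.5 and 59.2 RPKM. At 4 h replicate 2 alone was above both control libraries, and at 10 h both p38-MAPKi libraries were, by far less than at 7 h. Ndufa3 shares 4 bases of exon with a gene on the other strand.

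Ndufa2, an N module subunit with a thioredoxin-like fold (ENSMUSG00000014294.4, chromosome 18, 36742332 to 36744557), held 140 and 91.3 RPKM in control and 299 and 230 RPKM after p38-MAPKi at 7 h. The log2 fold change was 1.22 (limma, standard error 0.237, adjusted p = 0.0461). One p38-MAPKi library was already high at 4 h, where the values were 112 and 124 RPKM in control and 105 and 184 RPKM after p38-MAPKi. At 10 h, both p38-MAPKi libraries (92.0 and 97.5 RPKM) lay just under the control (107 and 98.8 RPKM).

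Ndufb7, a distal arm subunit on the intermembrane space side (ENSMUSG00000033938.5, chromosome 8, 83566671 to 83571626), held 23.5 and 17.6 RPKM in control and 48.7 and 36.1 RPKM after p38-MAPKi at 7 h, a log2 fold change of 1.04 (limma, standard error 0.218, adjusted p = 0.0487). Ndufs5, also on the intermembrane space side but of the proximal arm (ENSMUSG00000028648.13, chromosome 4, 123712710 to 123718202), held 33.4 and 24.3 RPKM in control and 65.0 and 51.1 RPKM after p38-MAPKi (log2 fold change 1.02, limma, standard error 0.213, adjusted p = 0.0487). For both genes the lower p38-MAPKi library exceeded the higher control library by more than the control libraries differed. At 10 h Ndufb7 held 18.9 and 19.2 RPKM in control and 18.1 and 19.5 RPKM after p38-MAPKi, and Ndufs5 31.1 and 26.8 against 28.0 and 26.1 RPKM. In Ndufs5, 21.7% of 50-base stretches, the read length, also occur in BC002163, so its reads are uncertain.

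The N module held genes at both ends of the range. Its 10 genes had a median of 0.61 on the log2 scale at 7 h, with Ndufa2 the only one called and 7 higher at an unadjusted p under 0.05. Ndufs6, a zinc-binding subunit at the joint of the N and Q modules, held 100 and 75.8 RPKM in control and 211 and 148 RPKM after p38-MAPKi (log2 fold change 1.02, limma, adjusted p = 0.0514). Ndufs4, whose loss causes Leigh syndrome, held 27.5 and 18.6 against 39.2 and 33.4 RPKM (0.68, limma, adjusted p = 0.0916). The 3 core subunits of the module differed among themselves. Ndufv2, an iron-sulfur subunit, held 75.3 and 48.9 RPKM in control and 115 and 99.2 RPKM after p38-MAPKi (0.82, limma, adjusted p = 0.0676). Ndufv1, which binds NADH and the flavin, held 100 and 84.6 against 117 and 115 RPKM (0.33, limma, adjusted p = 0.239). Ndufs1, the largest subunit and a carrier of iron-sulfur clusters, was the one member whose libraries were all lower after p38-MAPKi, with 18.9 and 19.8 RPKM in control and 15.9 and 15.2 RPKM after p38-MAPKi (-0.31, limma, adjusted p = 0.266).

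Genes of the Q module had the lowest median among the larger groups, 0.42, with 0 of 6 called and 3 higher at an unadjusted p under 0.05. Ndufa5, an accessory subunit, had the highest log2 fold change of all 37 genes and missed the threshold narrowly. It held 78.9 and 53.8 RPKM in control and 202 and 120 RPKM after p38-MAPKi (1.26, limma, standard error 0.273, adjusted p = 0.0503), with its p38-MAPKi libraries far apart. Ndufs3, a core subunit, held 26.3 and 28.2 against 40.8 and 36.8 RPKM (0.51, limma, adjusted p = 0.102). Ndufs7, next to the ubiquinone site, held 76.0 and 60.3 against 92.7 and 82.8 RPKM (0.37). Ndufs8, which carries iron-sulfur clusters, held 119 and 84.7 against 139 and 137 RPKM (0.46), neither with an adjusted p under 0.169 by limma. The 7 nuclear core subunits together had a median of 0.37 and 0 calls (limma, 3 higher at an unadjusted p under 0.05), and the 29 accessory members one of 0.75 and 4 calls. Main transcripts had a median length of 1623 bases in the core and 732 in the accessory class, and the difference between the 2 classes was not tested.

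The membrane arm genes have the shortest main transcripts, with medians of 683 bases in the proximal and 718 in the distal part, against 1346 in the N and 1014 in the Q module, and the difference between modules was not tested. The 9 proximal genes had a median of 0.84 with 2 called, and the 10 distal genes one of 0.76 with 1 called. All 10 distal genes had p38-MAPKi libraries above the control libraries, and 9 of them an unadjusted p under 0.05. Ndufb2 held 7.94 and 4.80 RPKM in control and 14.4 and 11.1 RPKM after p38-MAPKi (1.03, limma, adjusted p = 0.0636), and Ndufb4 17.7 and 11.0 against 29.0 and 24.3 RPKM (0.93, limma, adjusted p = 0.0634). Ndufb9, the most abundant, held 237 and 155 against 354 and 280 RPKM (0.72, limma, adjusted p = 0.0961), Ndufb6 151 and 83.4 against 204 and 184 RPKM (0.79), Ndufb10 91.1 and 55.6 against 127 and 109 RPKM (0.73), Ndufb3 79.4 and 67.9 against 115 and 101 RPKM (0.56), and Ndufb5 16.0 and 11.9 against 24.5 and 19.4 RPKM (0.66). In all of these distal arm genes control replicate 1 was above replicate 2. Of the proximal genes, Ndufa8 held 167 and 126 RPKM in control and 288 and 229 RPKM after p38-MAPKi (0.83, limma, adjusted p = 0.0595). Ndufa13, also known as GRIM-19, held 67.6 and 47.5 against 130 and 81.9 RPKM (0.87, limma, adjusted p = 0.0771). Ndufa10, a large subunit on the matrix side, stood apart with 47.8 and 43.7 against 42.6 and 50.7 RPKM (0.02), and X-linked Ndufa1 held 68.4 and 54.4 against 68.1 and 91.8 RPKM (0.38), both with overlapping groups.

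The acyl carrier protein gene Ndufab1 held 5.83 and 4.68 RPKM in control and 5.97 and 6.71 RPKM after p38-MAPKi at 7 h (0.28, limma, adjusted p = 0.444). Ndufa4, of complex IV, held 113 and 65.1 against 159 and 140 RPKM (0.80, limma, adjusted p = 0.0891), a value within the range of the membrane arm.

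**Figure D2:**
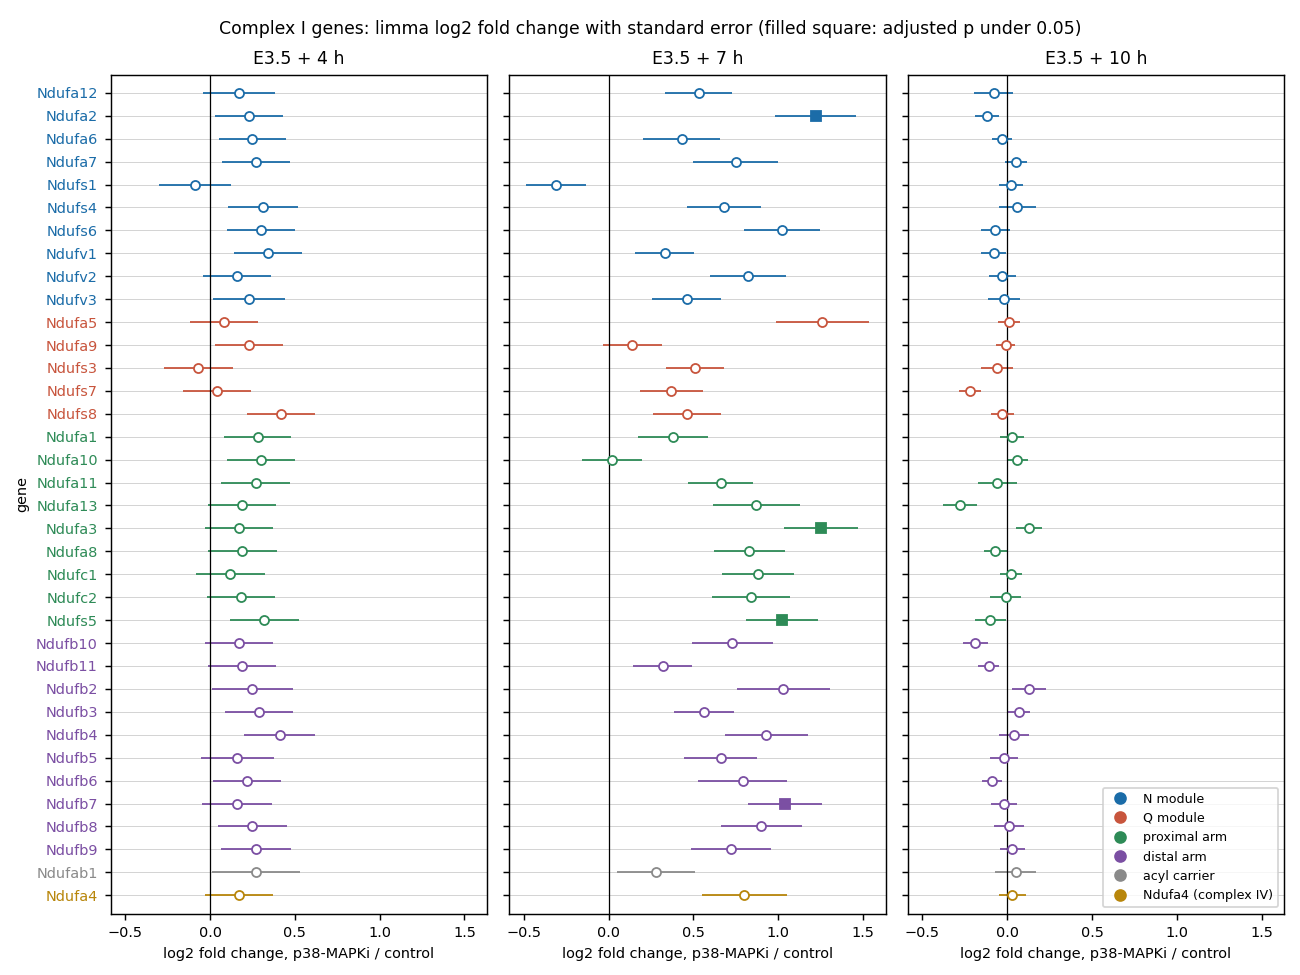
Log2 fold change of p38-MAPKi over control for 36 of the 37 complex I genes at each time point, with limma's standard error as bars, coloured by module. Filled squares have an adjusted p under 0.05 and are the 4 genes called at 7 h, where the median of all 37 is 0.72, against 0.23 at 4 h and -0.02 at 10 h.

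At 4 h, 35 of the 37 genes were above 0, with a median log2 fold change of 0.23 against 0.07 for all 10781 genes tested. By limma 0 of the 37 were called, where the background was 0.909%, and 2 were higher and 0 lower at an unadjusted p under 0.05, where 6.39% of all genes were higher. The p38-MAPKi libraries lay above the control libraries for 15 genes (26.8% of all genes) and below them for 0 (13.7%). Ndufs8 and Ndufb4 were the 2 genes with an unadjusted p under 0.05. Ndufs8 held 91.6 and 95.9 RPKM in control and 108 and 146 RPKM after p38-MAPKi (log2 fold change 0.42, limma, adjusted p = 0.487), and Ndufb4 14.8 and 14.6 against 20.1 and 19.2 RPKM (0.41, limma, adjusted p = 0.530). Next were Ndufv1 with 78.4 and 90.6 against 96.1 and 118 RPKM (0.34) and Ndufs5 with 27.9 and 28.3 against 32.1 and 38.2 RPKM (0.32). Lowest were Ndufs1 (17.5 and 19.0 against 18.3 and 16.0 RPKM, -0.09) and Ndufs3 (29.5 and 31.5 against 23.5 and 35.7 RPKM, -0.07). The shift came largely from 1 library: p38-MAPKi replicate 1 was lower than replicate 2 in 35 of 37 genes. The median was 0.41 without replicate 1 and 0.03 without replicate 2. At this time point limma took the spread of nearly every gene from the trend over expression, not from its own replicates. Voom called 0 of the 37 genes, where 0.306% of all genes were called.

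At 10 h there was no common direction. The median log2 fold change was -0.02 in the 37 genes and -0.02 in all 10959 genes tested, and the values ran from -0.28 to 0.13. By limma 0 of the 37 were called, against 0.803% of all genes. At an unadjusted p under 0.05, 0 were higher and 3 lower, where 11.6% of all genes were lower. Voom called 0 of the 37, against 4.79% of all genes. The p38-MAPKi libraries lay above the control libraries for 5 genes (22.6% of all genes) and below them for 8 (29.6%). The 3 lowest were Ndufa13 with 68.6 and 57.0 RPKM in control and 49.3 and 53.5 RPKM after p38-MAPKi (-0.28, limma, adjusted p = 0.188), Ndufs7 with 60.4 and 61.5 against 51.3 and 53.4 RPKM (-0.22, limma, adjusted p = 0.134), and Ndufb10 with 65.4 and 64.5 against 54.1 and 60.3 RPKM (-0.19, limma, adjusted p = 0.232). Ndufb2, with 5.90 and 5.74 against 6.46 and 6.26 RPKM, and Ndufa3 were highest, both at 0.13, followed by Ndufb3 (0.07) and Ndufa10 (0.06). In the simulation, with the limits given for 7 h, more was called here than at 7 h, namely 62% of 2-fold changes. Limma's standard errors of the 37 genes were small, 0.0577 to 0.12.

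Whether the effect differed between time points was tested on the difference itself. From 4 h to 7 h the effect grew by a median of 0.50 in the 37 genes, against a change of -0.22 in all genes, and by limma's interaction test 0 of the 37 were called (0.00884% of all genes), with 8 higher and 0 lower at an unadjusted p under 0.05, where 1.99% of all genes were higher. The median was 0.19 without control replicate 2 of 7 h and 0.34 and 0.32 without p38-MAPKi replicate 1 of 7 h and of 4 h, and 0.76 without control replicate 1 of 7 h. Largest were Ndufa5 (1.18, standard error 0.381) and Ndufa3 (1.08, standard error 0.322). From 7 h to 10 h the effect changed by a median of -0.70, against 0.15 in all genes, and again 0 of the 37 were called by limma (0.00877% of all genes), with 1 higher and 26 lower at an unadjusted p under 0.05, where 15.9% and 10.4% of all genes were. Without control replicate 2 of 7 h the median was -0.45 with 0 calls. Without control replicate 1 it was -0.99 with 18 calls (7.43% of all genes), and without p38-MAPKi replicate 2 it was -0.86 with 16 calls (25.6% of all genes). Ndufa2 (-1.34), Ndufa3 (-1.12), and Ndufs5 (-1.11) came nearest to the threshold, each with an adjusted p of 0.0710 by limma. These tests use the same 7 h libraries, so the rise and the return are not independent. With voom on the recovered reads, an alternative chosen after seeing the data, 0 genes were called in the first interaction and 8 in the second (7.87% of all genes), all lower: Ndufa13, Ndufa2, Ndufa3, Ndufa5, Ndufa8, Ndufb7, Ndufs5, and Ndufs6.

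In control blastocysts the levels of complex I mRNA stayed close together over the 6 h. The median log2 change of the 37 genes was 0.03 from 4 h to 7 h, 0.01 from 7 h to 10 h, and 0.02 from 4 h to 10 h, against 0.11, 0.02, and 0.14 for all genes tested. By limma 0 genes were called in each, against backgrounds of 0.492%, 0.0552%, and 0.471%. At an unadjusted p under 0.05 the counts were 0, 0, and 4 (3 higher and 1 lower). Voom called 0, 0, and 1, where 0.065%, 0.0828%, and 3.71% of all genes were called. The control libraries of the 2 time points did not overlap for 3, 1, and 22 genes, where the backgrounds were 29%, 30.7%, and 50.3% of all genes. The comparisons share control libraries, so their values are set side by side only. Ndufa10 had the largest change, from 36.6 and 44.0 RPKM at 4 h through 47.8 and 43.7 to 53.1 and 54.3 RPKM at 10 h (log2 change 0.42, limma, standard error 0.120, adjusted p = 0.158), and it was the gene voom called. Ndufs4 went from 21.5 and 20.3 to 27.7 and 23.6 RPKM (0.29, limma, adjusted p = 0.309) and Ndufa1 from 51.5 and 45.0 to 61.0 and 55.9 RPKM (0.28, limma, adjusted p = 0.299). On the other side stood Ndufs7, from 67.2 and 78.6 to 60.4 and 61.5 RPKM (-0.25, limma, adjusted p = 0.320), Ndufa5, from 71.2 and 70.5 to 63.8 and 59.6 RPKM (-0.20), and Ndufa2 and Ndufb2 (both -0.20). Median centring shifted all genes by 0.14 in this comparison and gave a median of -0.12 for complex I, and it gave -0.07 from 4 h to 7 h, so the sign of these small changes depends on the scaling.

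Replicates differed in the level of complex I as a whole, and this bears on the 7 h result. The median log2 RPKM of the 37 genes at 7 h was 6.10 and 5.61 in control and 6.53 and 6.37 after p38-MAPKi. In the other groups it ran from 5.76 to 5.93, except for 6.22 in replicate 2 of p38-MAPKi at 4 h. Control replicate 2 at 7 h was thus the lowest library and lay below replicate 1 in 35 of 37 genes, with a median difference of 0.46, while the median difference over all genes was 0.00. Without control replicate 2 the median log2 fold change at 7 h was 0.44 and 0 genes were called, of complex I or of any kind, with 13 of the 37 higher at an unadjusted p under 0.05. Without control replicate 1 it was 1.02 and 19 of the 37 were called, against 3.72% of all genes. Without p38-MAPKi replicate 2 it was 0.84 with 23 calls, against 27.4% of all genes, and without p38-MAPKi replicate 1, the shallowest library, it was 0.55 with 4 calls, against 5.35%.

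The change at 7 h also went with transcript length. Among all genes tested, the median log2 fold change was 0.66 for main transcripts of up to 700 bases, 0.46 from there to 1000, 0.22 to 1500, 0.01 to 2500, and -0.35 above 2500 bases. In the same classes the complex I genes had medians of 0.87 (14 genes), 0.72 (9 genes), 0.60 (6 genes), 0.40 (6 genes), and -0.02 (2 genes), and 11, 7, 5, 5, and 2 of them lay above the median of their class. Among the 37 genes, Spearman's rho of fold change and main transcript length was -0.55, as a description, and -0.53 among all genes. By total exon length, the one used for RPKM, rho was weaker, -0.27 among the 37 and -0.46 among all genes. On that length the 5 members of up to 700 bases had a median of 0.72, against 0.67 for all genes. The 9 members over 2500 bases had one of 0.66, against -0.25 for all genes. By main transcript Ndufs1 and Ndufab1, with 2661 and 3479 bases, are the longest, and the 4 called genes, Ndufa3, Ndufs5, Ndufa2, and Ndufb7, have 515, 525, 572, and 623 bases. With the length trend of each library removed, the median of complex I was 0.48 by total exon length and 0.35 by main transcript length, an alternative chosen after seeing the data, and no gene of the whole table was called in either (23 and 17 members higher at an unadjusted p under 0.05). At 4 h the median fell to 0.07 and 0.03 in these settings.

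**Figure D3:**
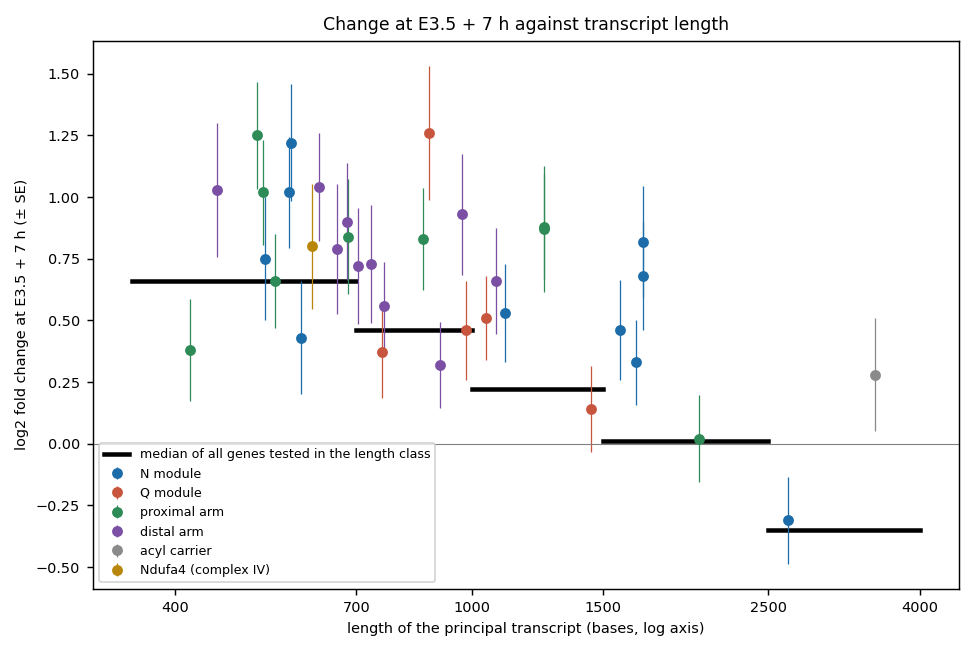
Log2 fold change of 36 of the 37 complex I genes at 7 h, with limma's standard error, against the length of the main transcript on a log axis, coloured by module. Black lines give the median of all genes tested in the length class, from 0.66 below 700 bases to -0.35 above 2500, and 30 of the complex I genes lie above their line.

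The level of complex I in each library was set beside that of other short mRNAs. Relative to each gene's mean over the 12 libraries, the median of the 37 genes was 0.70 and 0.43 in p38-MAPKi replicates 1 and 2 at 7 h, and that of 293 other genes with main transcripts of up to 700 bases was 0.58 and 0.42. The 14 complex I genes of that length stood higher than those short genes, at 0.96 and 0.57, and the 8 complex I genes with main transcripts over 1500 bases stood at 0.21 and 0.31. In control replicates 1 and 2 of that time point, complex I stood at 0.09 and -0.38, its 14 short members at 0.11 and -0.45, and the other short genes at 0.10 and -0.35. In replicate 2 of p38-MAPKi at 4 h, complex I and its short members both stood at 0.28 and the other short genes at 0.26. The 5151 genes with main transcripts over 2500 bases stood at -0.32 and -0.16 in p38-MAPKi and at 0.04 and 0.15 in control at 7 h, opposite in sign to complex I in all of these but control replicate 1. The part of this length pattern in the result was not tested beyond the settings above.

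**Figure D4:**
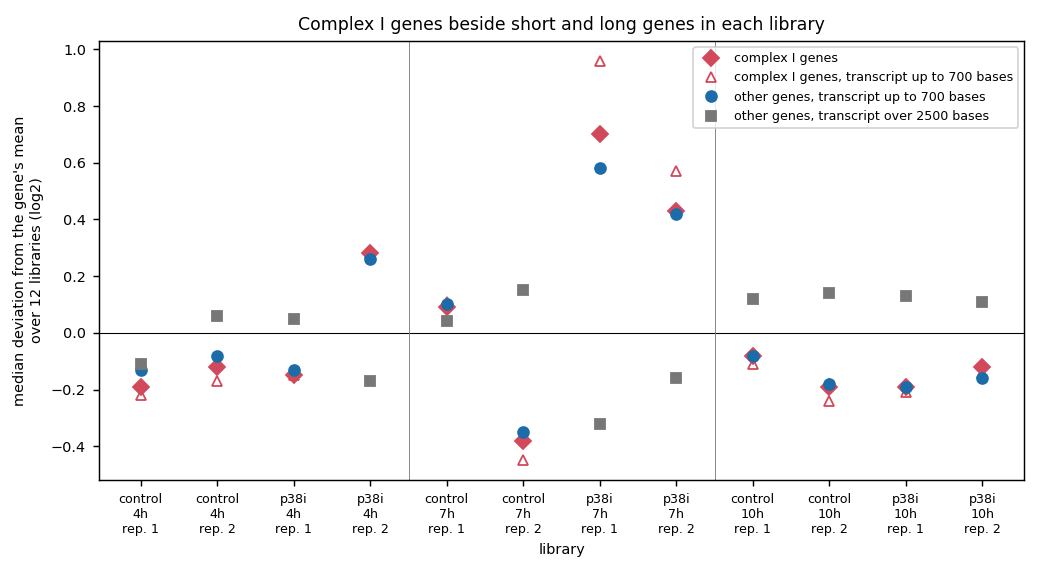
Median deviation, on the log2 scale, of the complex I genes, of the 14 among them with main transcripts of up to 700 bases, of 293 other genes with short main transcripts, and of 5151 with long ones from each gene's mean over 12 libraries, 1 point per library. At 7 h the diamonds of complex I lie at 0.70 and 0.43 in the p38-MAPKi libraries and at -0.38 in control replicate 2, the triangles of its short members at 0.96, 0.57, and -0.45, and the circles of the other short genes at 0.58, 0.42, and -0.35.

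The other respiratory complexes were read from lists in the same way. At 7 h the 10 subunits of complex IV had a median of 0.70 and 0 calls (limma, 9 higher at an unadjusted p under 0.05), the 9 of complex III 0.61 and 0 calls (5 higher), and the 16 of ATP synthase 0.46 with Atp5e (1.56, adjusted p = 0.0456) and Atp5k (1.33, adjusted p = 0.0473) called. The 4 subunits of complex II, which also belongs to the citric acid cycle, had a median of 0.03. The 16 assembly factors of complex I, which help to build it without staying in it, had a median of 0.22 with 0 calls (limma, 1 higher and 1 lower at an unadjusted p under 0.05). Ndufaf2 (5.03 and 3.11 against 6.12 and 5.74 RPKM, 0.59) and Tmem186 (10.6 and 11.6 against 6.99 and 8.30 RPKM, -0.54) were at the ends of their range. Medians of complexes II to V and the assembly factors at 10 h lay between -0.15 and 0.07. Ribosomal proteins of the cytosol, 78 genes, had a median of 0.68 with 9 called higher at 7 h, and the 78 of the mitochondrial ribosome 0.35 with 1 called higher. Their main transcripts had median lengths of 777 and 1253 bases, against 861 for complex I. Those of complexes II, III, IV, and V had 2065, 1363, 631, and 761 bases, and those of the assembly factors 1654. The part of length in these medians was not tested.

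Regulators of respiratory genes lay on both sides of 0. Of 9, 8 were tested and 0 called at 7 h (limma, 0 higher and 2 lower at an unadjusted p under 0.05, where 17.7% of all genes were lower), with a median of -0.25. Their main transcripts are long, with a median of 3911 bases. Nrf1, which encodes the factor of the motif above, held 8.78 and 8.15 RPKM in control and 7.52 and 6.68 RPKM after p38-MAPKi (-0.26), and Gabpa, an ETS family factor, 24.6 and 26.8 against 21.6 and 21.6 RPKM (-0.25). The PGC-1-related coactivator gene Pprc1 held 23.2 and 31.4 against 11.9 and 16.2 RPKM (-0.96, limma, adjusted p = 0.0548), and Yy1 25.0 and 27.1 against 18.4 and 18.9 RPKM (-0.48). On the other side, Gabpb1 held 5.82 and 5.74 against 7.66 and 6.41 RPKM (0.28), Tfam, a factor for mitochondrial DNA, 20.8 and 18.7 against 24.4 and 20.9 RPKM (0.20), and Esrra was at 0.06. Ppargc1b was at -0.26. For the 8 members with the NRF1 motif in a window the median log2 fold change at 7 h was 0.88, and for the 25 without it 0.66. With and without the ETS family motif it was 0.65 and 0.73, and with and without the YY1 motif 0.68 and 0.74. For the SP1 motif the medians were 0.79 and 0.71, and for the TATAAA box 0.90 and 0.68. None of these differences was tested.

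Some reads of these genes cannot be placed with certainty. Of the 37 genes, 20 hold at least 1 stretch of 50 bases that also occurs in another transcript, over 10% of stretches in 5 of them: Ndufs5, Ndufb4 (18.3%), Ndufa12 (17.7%), Ndufs3 (16.1%), and Ndufb9 (15.6%). Exons of 16 genes overlap an exon of another gene, on the same strand in 3 and on the other strand in 14, and whether the counting used strand is not given in the sources used here.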

How the data were processed

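Reads were single-end of 50 bases from a directional poly(A) protocol. According to the sources, the authors trimmed them with Trim Galore! 0.4.1, mapped them to GRCm38 with HISAT2 2.0.5, and quantified genes in SeqMonk, and the deposited values are log2 RPKM, replicates apart. The treatment of strand, isoforms, and reads with several places is not given in the sources used here. The authors' own test was DESeq2. In the table the value of an unread gene equals 0.9 reads, which gave each depth. Whole reads (tolerance 0.03) came with the GENCODE M21 exon length for 26 members and with a length found by search for the other 11.

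The log2 values were tested as deposited with limma 3.58.1 (lmFit, eBayes with trend) in R 4.3.3, over genes that reached 1 RPKM in 2 or more libraries of the comparison. All 37 members passed. A call is a Benjamini-Hochberg adjusted p under 0.05 over all genes tested. Each comparison used its 4 libraries, each interaction 8. Replicates were separate pools. In simulated data each gene was drawn independently, with its own observed spread. Of log2 changes of 2, 45%, 24%, and 80% were called at 4, 7, and 10 h. Of log2 changes of 1, 3%, 0%, and 62% were called, with 0%, 4%, and 2.07% of calls false. The length trend was removed by a loess curve (span 0.5).

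The members and lists were chosen with earlier results of these data known. Named with values are the nuclear core subunits, Ndufab1 and Ndufa4, the 4 highest and 3 lowest log2 fold changes at each time point, every called member, the 3 highest and 3 lowest levels, and the 3 largest changes each way in control from 4 to 10 h. An item withheld from the text is not reported here. Further members named were chosen after their values were seen. Main transcripts are the principal ones by GENCODE tags. Promoter windows are from RefSeq. Alternatives are given in the closing section. Voom on recovered reads and removal of the trend on main transcript length were added after seeing the data. Scripts ran in Python 3.11.15 with pandas 2.3.3 and numpy 2.4.6, with figures drawn by matplotlib 3.10.9 and correlations from scipy 1.17.1.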

Additional observations from a re-analysis of the deposited data

How the results depend on the processing

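Each comparison was repeated without the trend, without the filter, at a filter of 10 RPKM, with 1 RPKM added, after quantile normalization or median centring, with all 12 libraries in a single fit, the replicate block, a threshold of 0.1, and the length trend removed, without each library, and with voom on recovered reads. No call changed direction. At 7 h, where 4 genes were called, 0 were called without the trend, with median centring, quantile normalization, or either length trend removed, and in these settings 0 genes of the whole table were called, except 12 with quantile normalization. There were 7 with 1 RPKM added (4.65% of all genes called), 16 with no filter (3.61%), and 22 at 10 RPKM (18.6%) and with voom (15.8%). In the single fit there were 24 (23.6%), and at a threshold of 0.1 there were 23 (share of all genes not given here). With the replicate block 23 were called (18.5% of all genes). Whether libraries with the same replicate number belong together is not given in the sources used here. Replicate differences in control and after p38-MAPKi had correlations across genes of 0.01, 0.17, and 0.12 at the successive time points, which cannot decide it. At 7 h replicate 1 was the higher in 35 of the 37 genes in control and in 30 after p38-MAPKi, and at 10 h in 29 and 13. Every one of these settings with calls at 0.05 held the 4 genes. Adjusted p ranged from 0.00105 to 0.267 for Ndufa3, 0.00124 to 0.268 for Ndufa2, 0.00136 to 0.347 for Ndufb7, and 0.00219 to 0.347 for Ndufs5. The median there was 0.35 with the main transcript trend removed. Leaving out libraries gave 0 to 23 calls and medians of 0.44 to 1.02 at 7 h, and 0 to 2 calls at 4 h. For the change in effect from 4 h to 7 h these were 0 to 1 (Ndufa5, without p38-MAPKi replicate 2) and 0.19 to 0.76, and from 7 h to 10 h 0 to 18 and -0.99 to -0.45. The 18 calls came without control replicate 1 and 16 without p38-MAPKi replicate 2 of 7 h. The interaction from 7 h to 10 h had 6 calls at 10 RPKM (9.97% of all genes) and 8 with voom (7.87%). At a threshold of 0.1 it had 10 (share of all genes not given here). Its medians were -0.90 after median centring and -0.49 and -0.35 with the exon and main transcript trends removed. In control from 4 h to 10 h, Ndufa10 alone of the 37 was called at 10 RPKM, with the replicate block, and with voom. In these settings 5.48%, 4.95%, and 3.71% of all genes were called. Over libraries left out, the median of complex I was -0.04 to 0.06. The median was -0.07 and -0.04 once the exon and main transcript trends were taken out, -0.06 under quantile normalization, and -0.12 under median centring. Leaving out a control library gave medians of -0.21 to 0.22 for 10 h against 7 h and of -0.21 to 0.25 for 7 h against 4 h. The causes were not tested.

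With 2 libraries per group the spread of a group is poorly known, RPKM gives shares and not amounts, and a time point rests on 4 libraries of which 1 can decide the count of calls.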
